A study of Drosophila melanogaster with 3 samples.

Results

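Of the 7283 peaks in the optimal list for Pif1A in Drosophila melanogaster pupae, 1393 (19.1%) had their entry on the X chromosome, and they are described here against the 5890 on the autosomes. Membership was decided by the chromosome name of each peak alone, and no measured value entered the choice. ChIP-seq of whole pupae was done in 3 biological replicates, all of 1 group: a stably transgenic line, Pif1A-GFP, in which GFP was joined to the C terminus of Pif1A, with chromatin recovered by an antibody against GFP. The pupae were of mixed sex and unknown age, and what share of each replicate was male is not given in the sources read. The replicates share a control, and no line without the tag was analysed here, so signal that does not depend on Pif1A cannot be told apart from binding. Each replicate has its own list of ranked peaks on dm6, of which the 7283 highest were used. Peaks are ranked by their score, the authors' deposited signal value, which compares peaks within a list only. Depth is unknown, because the lists hold no read counts.

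Pif1A takes its name from its interaction with the PFTAIRE kinase, and how it comes to chromatin is not described in the sources used here. The fly X is a sex chromosome that carries many essential genes. Males carry a single copy, and transcription from it is raised by the dosage compensation complex, which holds the MSL proteins and the roX RNAs. That complex enters the chromosome at GA-rich elements, which the zinc finger protein Clamp binds, and X is also known for a high content of simple dinucleotide repeats. A peak list can therefore be read on X against both the genes there and the sequence there.

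The sequences at the highest X summits are shown first, since the leading genes named further on turn on them. All are from the plus strand of Release 6 of the genome (dm6, from RefSeq), and the capitals in these first 6 mark the 11 bases centred on the summit. The 3 highest X peaks over 500 bp from every transcription start site (TSS), with windows free of annotated UTR, lay in introns of CG32772 (chrX:4910368-4910468), CG3726 (chrX:5918873-5918973) and Hr4 (chrX:1951864-1951964).
CG32772 intron: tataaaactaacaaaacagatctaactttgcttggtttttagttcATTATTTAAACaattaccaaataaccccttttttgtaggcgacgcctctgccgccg
CG3726 intron: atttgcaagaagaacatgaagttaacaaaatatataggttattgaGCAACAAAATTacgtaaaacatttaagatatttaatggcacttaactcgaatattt
Hr4 intron: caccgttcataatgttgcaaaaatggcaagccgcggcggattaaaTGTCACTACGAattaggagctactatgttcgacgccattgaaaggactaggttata
For the 3 highest promoter peaks, 30 bases are given, at Ugalt (chrX:2703873-2703902), lncRNA:CR44619 (chrX:12751379-12751408) and CG32772 (chrX:4909143-4909172).
Ugalt promoter: aaacaaaatTTAAAAGTGCAttgtgcattt
lncRNA:CR44619 promoter: tctcacttgTGTAACAATATtttaatttca
CG32772 promoter: agacgacggACAAAAACTTCgtcgtgaatt
G and C made up 35.6%, 24.8% and 43.6% of the intronic windows in CG32772, CG3726 and Hr4. At the Ugalt, lncRNA:CR44619 and CG32772 promoters they made up 23.3%, 23.3% and 43.3% of the 30 bases. Across all X summits, windows reaching 50 bp to each side held 34.6% G and C on average, against 34.6% at autosomal summits. Consecutive tiles of that length held 42.5% over the whole of X and 42.1% over the autosomes, so summits lay in AT-rich sequence on both.

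X carried 59.3 peaks per Mb of sequenced bases in the optimal list, against 53.5 per Mb on the autosomes. The chromosome holds 17.6% of the sequenced bases and 15.7% of the protein-coding genes of the 6 arms compared. Among the 7283 highest peaks of each replicate, X carried 61.6, 60.9 and 54.9 peaks per Mb in replicates 1, 2 and 3, against 52.9, 53.1 and 54.4 per Mb on the autosomes. At this number of peaks X lay above the autosomes in each replicate, but by little in replicate 3. The log2 ratio of X over autosomes was 0.22, 0.20 and 0.013, with a mean of 0.14 ± 0.11 (SD, n = 3). An exact two-sided sign-flip permutation test over the replicates gave p = 0.25, the smallest that 3 replicates allow, and 0.438 after Benjamini-Hochberg adjustment over 7 such results.

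The autosomal arms differed among themselves by as much as X differed from their pooled value. In the optimal list 3L carried 57.4 peaks per Mb, 2L 56.8, 3R 52.1 and 2R 49.6, and the small chromosome 4 carried 18.0. X stood above every one of these in the optimal list and in replicates 1 and 2. In replicate 3, X with 54.9 peaks per Mb stood below 3L with 59.1 and 2L with 57.1. Per 100 protein-coding genes, X carried 63.4 peaks, against 50.1 on the autosomes and between 30 and 58.6 on the single autosomal arms. Genes are sparser on X, with 93.5 protein-coding genes per Mb against 107 on the autosomes. Farther down the lists the share of X among peaks was lower. In 10 rank bins of the whole replicate lists it averaged 19.3% ± 1.00 in the highest bin, between 16.8% and 17.7% in each of the 5 lowest, and 17.6% ± 0.839 in the lowest (SD, n = 3), beside 17.6% of the bases. Over the whole lists the log2 density ratio was 0.15, 0.076 and -0.063 in replicates 1, 2 and 3, so that X lay below the autosomes in replicate 3. The mean was 0.055 ± 0.11 (SD, n = 3; exact sign-flip permutation test, p = 0.5). On the older build dm3, the optimal list of 7466 peaks held 1439 on X and 6021 on the autosomes, and 1 peak on XHet.

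**Figure D1:**
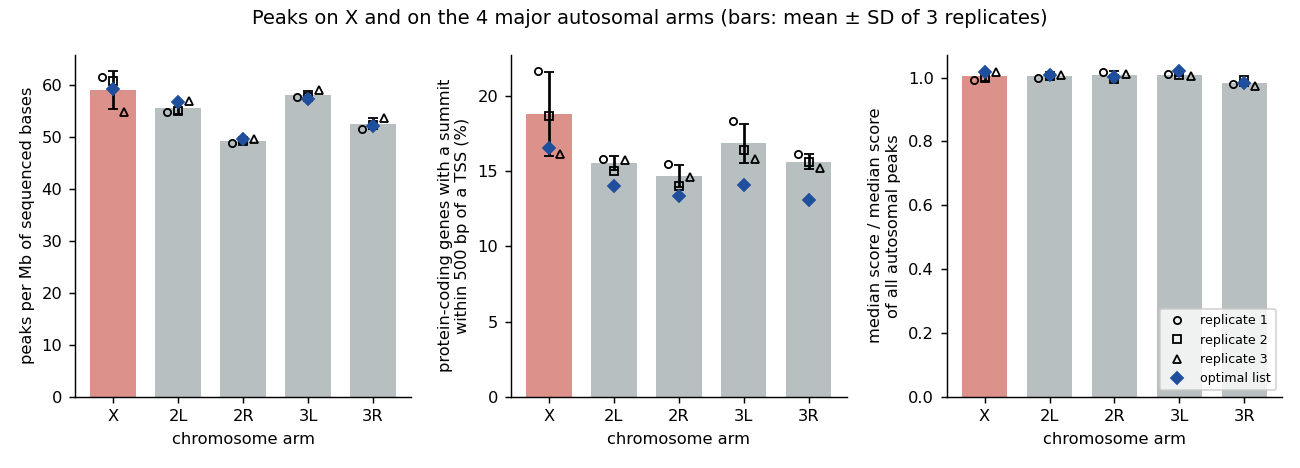
Peaks per Mb, the percentage of protein-coding genes with a summit within 500 bp of a TSS, and the median score relative to all autosomal peaks, for X and 4 autosomal arms. Bars are means with SD over 3 replicates, open symbols are the replicates and diamonds the optimal list: X is highest in density in replicates 1 and 2 (61.6 and 60.9 per Mb) but not in replicate 3 (54.9), and the median scores lie close to those of the autosomes on all 5 arms.

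Peaks were unevenly spread along X. The 23 full bins of 1 Mb held between 7 and 113 peaks of the optimal list, with a median of 59. The arms 2L, 2R, 3L and 3R had medians of 61, 58, 62 and 55 and highest bins of 108, 106, 123 and 103. Their lowest bins held 2, 0, 0 and 0 peaks, below the 7 of the lowest bin on X. The bin order on X was close to the same in all replicates, with Spearman's rho between 0.965 and 0.979 across bins, which are neighbours on 1 chromosome and not independent. Against the number of protein-coding genes in a bin, the peak count had a rho of 0.231 over the 23 bins.

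The densest bin, chrX:3000001-4000000, had 113 peaks in the optimal list and 109, 109 and 102 in the replicates. It has only 55 protein-coding genes, against between 46 and 141 in the other full bins. Of its 113 summits, 85 lay in introns. It takes in the end of kirre and the spans of dnc, lncRNA:CR44999, Mnt and Tlk, and its highest peak, with a score of 803, lay at a TSS of dnc, which encodes a cAMP phosphodiesterase needed for learning. The bin chrX:22000001-23000000, the least dense, had 7 peaks in the optimal list and 8, 7 and 5 in the replicates. Its highest peak, with a score of 334, lay at mir-2491. The bin has 46 protein-coding genes, and 6.42% of its bases are unsequenced.

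The end of X next to the centromere carried few peaks. After the first 20 Mb, 55 peaks lay in the remaining 3.54 Mb of the chromosome, or 15.5 per Mb, against 66.9 per Mb before that point. Protein-coding genes numbered 55.05 per Mb after 20 Mb and 100.05 per Mb before it. The replicates carried 17.2, 18.3 and 14.96 peaks per Mb after 20 Mb, against 69.3, 68.2 and 61.8 per Mb before it. The longest stretch of X without an optimal summit ran from chrX:21631704 to 22479575, 848 kb with 28 protein-coding genes inside, and held 2, 0 and 2 of the replicates' peaks. The longest such stretches on 2L, 2R, 3L and 3R were 415510, 672974, 2917124 and 308520 bp. Gaps over 100 kb numbered 39 and covered 31.1% of X, against 33.1% of 2L, 23.1% of 2R, 30.7% of 3L and 23.9% of 3R. Elsewhere summits were close together: the median distance between neighbouring X summits was 4365 bp, and between 3930 and 5039 bp on the major autosomal arms.

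**Figure D2:**
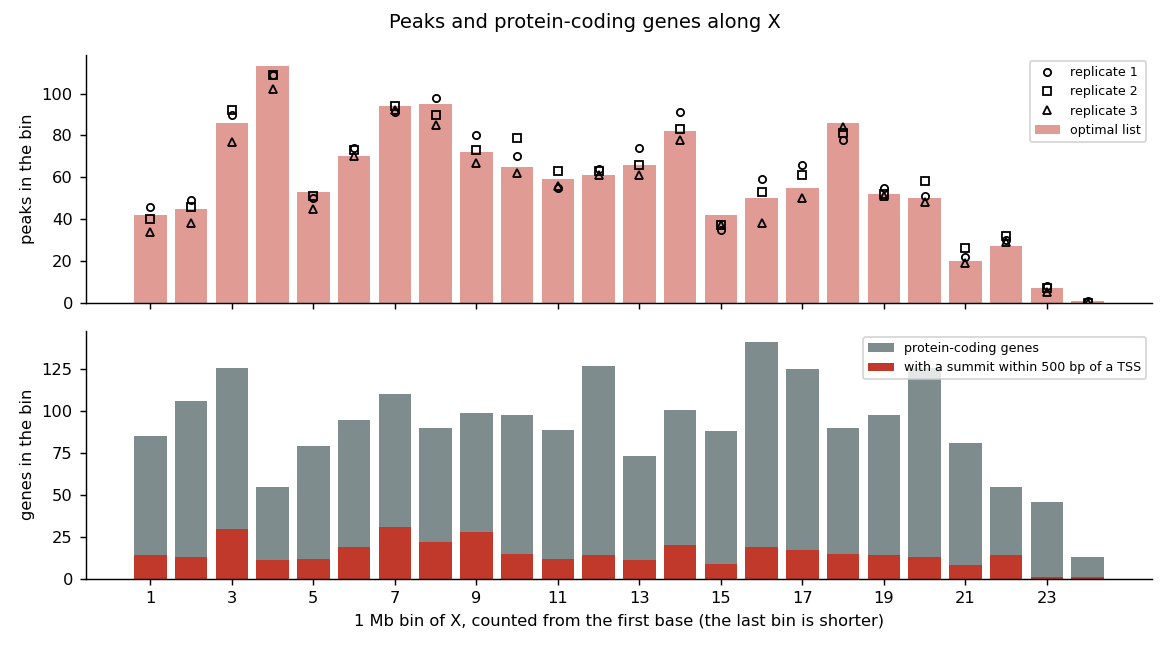
Peaks (upper panel) and protein-coding genes (lower panel) in consecutive 1 Mb bins of X, numbered from the first base. Bars give the optimal list, symbols the 3 replicates, and red in the lower panel the genes with a summit within 500 bp of a TSS: bin 4 has 113 peaks on 55 genes, and the last 4 bins together have 55 peaks.

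X differed from the autosomes in the kind of sequence under the summits, with fewer of them between genes and more in introns. Only 115 X summits (8.26%, 95% Wilson interval 6.92 to 9.82) lay between genes, against 1203 autosomal summits (20.4%, 19.4 to 21.5). Intervals of this kind cover counting error only. Introns held 786 X summits (56.4%, 53.8 to 59.0) against 2717 autosomal summits (46.1%, 44.9 to 47.4). A summit counted as TSS-proximal when it lay within 500 bp of the start of any annotated transcript, and only summits farther away were placed in introns or between genes. Introns are those of all annotated genes, noncoding genes included, and the part in noncoding genes alone was not counted.

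The intergenic share on X was 7.40%, 8.33% and 7.84% in replicates 1, 2 and 3, against 18.6%, 19.3% and 19.6% on the autosomes. Every replicate on X lay below every replicate on each autosomal arm: the lowest arm, 2R, had 13.9%, 14.3% and 14.9%. The difference, X minus autosomes, was -11.3 ± 0.421 percentage points (SD, n = 3; exact sign-flip permutation test, p = 0.25, the smallest possible; a comparison added after seeing the data). Intergenic sequence is 22.6% of X and 28.3% of the autosomes. The summit share divided by the base share was 0.365 on X, against 0.721 on the autosomes and between 0.522 and 0.830 on 2L, 2R, 3L and 3R.

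The arm most like X in its makeup is 3R, with introns over 43.5% of the bases of X and 43.1% of 3R, and intergenic sequence over 22.6% of X and 24.0% of 3R. Between genes, X had 8.26% of its summits and 3R had 17.6%. In introns, X had 56.4% and 3R had 49.1%. The intron share on X was 51.2%, 55.5% and 55.5% in the replicates, against 46.0%, 49.0% and 47.7% on 3R. X was higher in each replicate when compared with the same replicate on 3R.

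The intron share was 9.69 ± 1.13 percentage points higher on X than on all autosomes (SD, n = 3; 8.76, 9.35 and 10.95 in the replicates; exact sign-flip permutation test, p = 0.25, adjusted 0.438). Relative to intronic bases, X had 1.30 times its share of summits in introns, against 1.19 for the autosomes, where the major arms ran from 1.14 on 3R to 1.31 on 2R. On that scale the X value lay within the range of the arms. Exonic classes were small. Coding exons, 13.9% of X, held 3 X summits, against 8 autosomal summits. The 3' UTRs held 17 X summits (1.22%), against 34 autosomal summits (0.577%), and they are 5.94% of X and 4.13% of the autosomes.

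**Figure D3:**
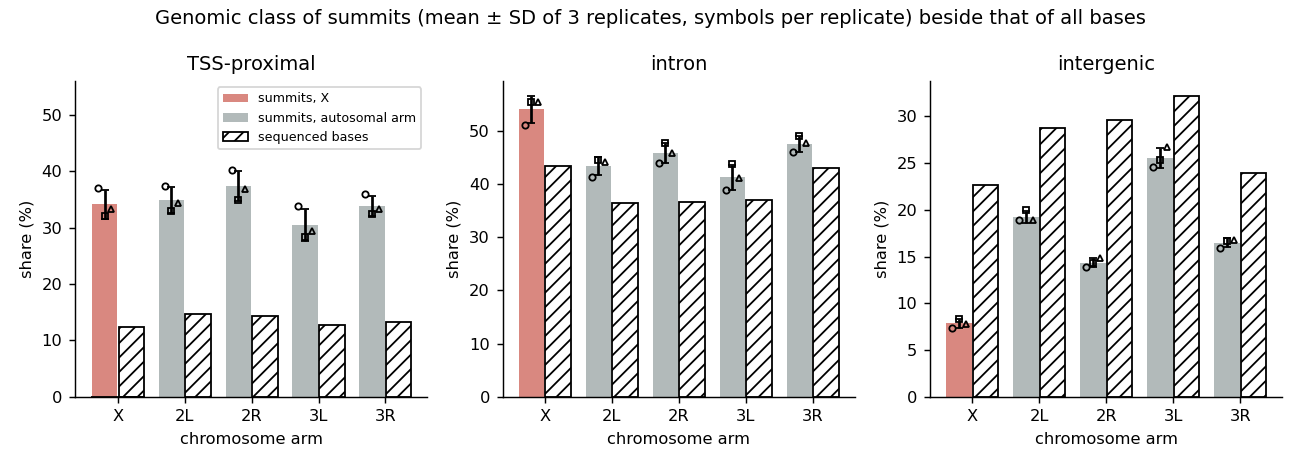
Share of summits (filled bars, mean and SD of 3 replicates, symbols for each replicate) and of sequenced bases (hatched bars) that are TSS-proximal, intronic or intergenic, for X and 4 autosomal arms. X has the lowest intergenic share of summits in every replicate (7.40% to 8.33%) and the highest intron share.

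Promoters took up about the same part of the peaks on X and the autosomes, but a smaller part of the bases on X. TSS-proximal summits were 31.9% on X (445 of 1393) and 31.0% on the autosomes (1825 of 5890). The difference over replicates was 0.107 ± 0.200 percentage points (SD, n = 3; exact sign-flip permutation test, p = 0.75). With a narrower window it had the opposite sign: within 200 bp of a TSS lay 21.4%, 16.7% and 16.99% of X summits in the replicates, against 23.7%, 19.6% and 20.9% of autosomal summits. Beyond 200 and up to 500 bp lay 15.6%, 15.3% and 16.3% of X summits, against 13.0%, 12.4% and 12.4% of autosomal ones. X was lower inside 200 bp and higher from there to 500 bp in each replicate. Bases within 500 bp of a TSS are 12.4% of X and 13.6% of the autosomes. The summit share divided by that base share was 2.57 on X and 2.27 on the autosomes. It was between 2.14 and 2.39 on 2L, 2R, 3L and 3R, and 5.65 on chromosome 4. In the replicates it was 2.98, 2.58 and 2.68 on X, against 2.69, 2.35 and 2.44 on the autosomes.

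Scores on X were close to those on the autosomes. The median score was 155 on X and 152 on the autosomes in the optimal list. The log2 ratio of the medians was -0.0090, -0.0014 and 0.027 in the replicates, with a mean of 0.0055 ± 0.019 (SD, n = 3; exact sign-flip permutation test, p = 1). The middle 50% of X scores ran from 112 to 249, against 112 to 245 on the autosomes. X had 1 of the 10 highest peaks of the list, 16 of the 100 highest and 208 of the 1000 highest (20.8%).

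Of the 1393 X peaks, 795 (57.1%, Wilson interval 54.5 to 59.6) had a summit within 100 bp among the 7283 highest in all 3 replicates, against 3292 of 5890 (55.9%, 54.6 to 57.2) on the autosomes. The optimal list was made from these replicates, so the shares describe it and do not test it. Replicate 3 matched 78.5% of X peaks, against 82.3% of autosomal peaks. Replicates 1 and 2 matched 78.5% and 81.7% of X peaks, against 77.0% and 78.6% of autosomal peaks. With X peaks divided by score into 4 groups, of 348 or 349 peaks each, 96.8% of the highest group were matched in all 3 replicates, 87.9% of the next, 40.5% of the one below and 3.15% of the lowest. The lists are all limited to 7283 peaks, so peaks near that limit in the optimal list often fall outside it in a replicate, and these shares follow in part from it. In the whole replicate lists, the lowest X peak of the optimal list, at Fim with a score of 87.7, had no match in replicate 1 and ranks of 12321 and 7073 in replicates 2 and 3. The next lowest, a second peak at RpL17, had a score of 87.8, ranks of 26474 and 9066 in replicates 1 and 2, and no match in replicate 3.

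The highest X peak had its summit 35 bp from the TSS of Ugalt, which encodes a UDP-galactose transporter. Its score was 2980 in the optimal list, and it ranked first in each replicate with scores of 949, 1141 and 904. Next on X was the intronic summit in CG32772, whose sequence is printed above, with a score of 1877 and replicate ranks of 14, 9 and 15. A separate peak at the promoter of CG32772 had a score of 1446 and ranks of 25, 35 and 29. Both summits of this gene were thus high in all replicates. The peak named here by lncRNA:CR44619 has its summit inside lncRNA:Vinr, another noncoding gene that overlaps it, and 474 bp from the TSS of lncRNA:CR44619. It had a score of 1531 and ranks of 26, 14 and 39.

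Promoter peaks among the 20 highest included genes of metabolism and chromatin. The summit at ph-p, a Polycomb group gene, had a score of 1330 and ranks of 48, 24 and 58. The neighbouring copy ph-d had a peak with a score of 230, and no source read says how reads shared by near-identical copies were treated. A summit with a score of 1314 lay 205 bp from a TSS of bves and 404 bp from one of Stt3A, a catalytic subunit of the oligosaccharyltransferase, and ranked 41, 43 and 38. The peak at Gapdh2, a glycolytic enzyme gene, had a score of 1171 and ranks of 34, 87 and 55. CG4586, CG43658, CG8034 and Ptpmeg2, a protein tyrosine phosphatase gene, also had promoter peaks among the 20.

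Introns held 10 of the 20 highest X peaks. Hr4, a nuclear receptor gene of the ecdysone response, had 2 of them, with scores of 1267 and 941, at 9974 and 5807 bp from the nearest TSS. The higher ranked 59, 36 and 57 in the replicates, and the lower ranked 111, 121 and 111. CG3726 had an intronic peak with a score of 1275 and ranks of 85, 28 and 45. Raf, the kinase below Ras in receptor tyrosine kinase signalling, had one with a score of 1064 at 5249 bp from a TSS and ranks of 126, 54 and 79. Introns of LPCAT, an acyltransferase gene, NFAT, a transcription factor gene, prage, lncRNA:CR45668 and Zw, the glucose-6-phosphate dehydrogenase gene, held the others outside CG32772.

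Many X summits were packed into a few genes. The 10 X genes with the most summits held 180 X summits (12.9%) on 4.86% of the chromosome, or 1.57 summits per 10 kb, against 0.542 per 10 kb on the rest of X. These genes were chosen by their counts, so the contrast is a description. The gene with the most was kirre, an immunoglobulin superfamily adhesion gene needed for myoblast fusion, with 37 summits in 394 kb and 32, 36 and 29 in the replicates. Its density was 0.939 per 10 kb, above that of X as a whole (0.592) but the lowest of the 10.

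The packing was tightest at Mnt, which encodes a repressor that opposes Myc, with 19 summits in 29.9 kb, or 6.36 per 10 kb, and 15, 17 and 17 in the replicates. Tlk, the Tousled-like kinase gene, had 19 in 69.8 kb and 23, 17 and 18 in the replicates. Raf had 14 in 48.4 kb and 15, 12 and 13 in the replicates. CG43658 had 22 in 105 kb and 17, 19 and 20 in the replicates. Of the noncoding genes, lncRNA:CR44357 had 29, lncRNA:CR44999 22 and lncRNA:CR44833 18. CG1677, with 21 summits, lies within lncRNA:CR44357, and CG12535, with 14, within lncRNA:CR44999, so those summits count for both genes. The span of Myc, a gene given below, also lies within lncRNA:CR44999. The summits counted for kirre include those at the promoters of w and N, also given below. X has 69 protein-coding genes with a span over 50 kb (3.14%), against 238 (2.03%) on the autosomes, and the median span is 2521 bp on X against 2102 bp on the autosomes.

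**Figure D4:**
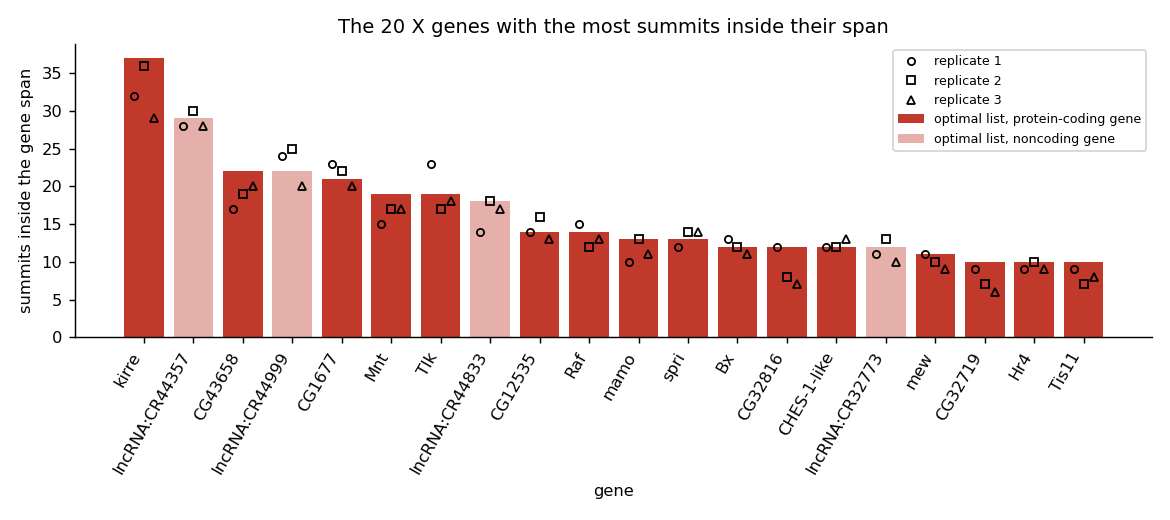
Number of summits inside the span of each of the 20 X genes with the most. Bars give the optimal list (dark for protein-coding and light for noncoding genes) and symbols the 3 replicates: kirre has 37 in the optimal list and between 29 and 36 in the replicates, and overlapping genes share summits.

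Of the 2196 protein-coding genes on X, 363 (16.5%, Wilson interval 15.04 to 18.1) are called bound, having a TSS with an optimal summit no more than 500 bp away, against 1602 of 11749 (13.6%, 13.0 to 14.3) on the autosomes. Across all protein-coding genes the share bound was 14.1%. In replicates 1, 2 and 3 the share was 21.7%, 18.7% and 16.1% on X, against 16.5%, 15.3% and 15.3% on the autosomes. X was higher in each replicate, by 5.22, 3.41 and 0.774 percentage points, and the mean was 3.14 ± 2.24 (SD, n = 3; exact sign-flip permutation test, p = 0.25, adjusted 0.438). Replicate 3 gave the smallest difference here, as it did for density. Of 483 ncRNA genes on X, 47 were bound (9.73%), against a share of 9.66% over all ncRNA genes.

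Cytosolic ribosomal protein genes, whose products build the ribosome, stood high on X. Of 14 on the chromosome, 10 were bound in the optimal list and 11, 13 and 9 in the replicates, against 29 of 78 on the autosomes and 33, 34 and 39 in the replicates. The single major arms had between 26.1% and 50% bound, against 71.4% on X. The highest were RpS10b with a score of 339, RpL17 with 211, RpS5a with 201.2 and RpS19a with 196. Some of these summits lay within 500 bp of the start of other genes too. The RpL17 summit was shared in this way with snoRNA:Psi28S-1232 and tRNA:Phe-GAA-1-2, that of RpS19a with Rok and that of RpS14a with Dhdds. RpL36 and RpS28b were not bound in the optimal list, RpL36 being bound in replicate 2 and RpS28b in replicates 1 and 2. RpS14a and RpS14b, both bound, are near-identical neighbours, so their peaks may share reads. Of the 11 mitochondrial ribosomal protein genes on X none was bound in any list, against 11 of 62 on the autosomes and 15, 14 and 11 in the replicates. With 16.5% of all X protein-coding genes bound in the optimal list, none in so short a list is near the background.

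The genes of dosage compensation gave 0 bound of 8 in the optimal list, 3 of the 8 being on X. With shares of 14.1% of protein-coding and 9.66% of ncRNA genes bound over the genome, a count of 0 in so short a list is near the background. The nearest optimal summit lay 4505 bp from a TSS of lncRNA:roX1 and 18523 bp from that of lncRNA:roX2, the RNAs of the complex, and 3825 bp from that of mof, its histone acetyltransferase. Elsewhere, msl-1, msl-2, msl-3 and mle were unbound in all lists, and Clamp was bound in replicate 3 only. Of the 5 sex determination genes on X, 1 was bound, a share near that of all X protein-coding genes (16.5%): Sxl, the master switch of female development, with a score of 202 and in all 3 replicates. The X-linked signal genes sisA, sc, upd1 and run were unbound in all lists.

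Among ecdysone genes, which run metamorphosis in the pupa, 3 of 5 were bound (60%), beside 16.5% of all X protein-coding genes. They were usp, the partner of the ecdysone receptor, with a score of 192, br, an early response transcription factor gene, with 160, and Hr4 with 96.3. The first pair was bound in all 3 replicates and Hr4 in replicate 1 only, although the Hr4 introns held the high peaks given above. The usp summit also lay within 500 bp of the start of CG4313. The steroid enzyme genes phtm and Cyp18a1 were unbound in all lists. Of 20 patterning factor genes 6 were bound (30%), led by ct with a score of 251, oc with 192, Bx with 111 and bi with 109, and run and gt were unbound. The oc gene was bound in each replicate, but the peak named here had a match only in the whole list of replicate 3. The bi gene was bound in replicates 1 and 2 only. The Bx summit also lay within 500 bp of the start of tRNA:Pro-CGG-2-1. Bx had 12 summits inside its span.

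Signalling genes were bound in 5 of 16 cases (31.25%), beside 16.5% of all X protein-coding genes. The kinase gene sgg (GSK3) had a score of 643, the phosphatase gene csw 478, the receptor gene fz3 268 and N, the Notch receptor gene, 129, each bound in all 3 replicates. Raf was not bound within 500 bp of a TSS, although 14 summits lay in its span, and dsh, a Wingless pathway gene, was unbound in all lists. Adhesion genes were bound in 5 of 8 cases (62.5%), with sdk at a score of 671, if at 169, Nrg at 145, Fas2 at 129 and kirre at 121. The first 4 of these were bound in each replicate and kirre in none. The optimal kirre summit lay 479 bp from a TSS, close to the limit of 500 bp. Its peak had matches in the whole lists of replicates 1, 2 and 3 at ranks 4361, 6245 and 8584. The integrin gene mew had 11 optimal summits in its span and none within 500 bp of a TSS, though it was bound in replicates 1 and 3.

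Of 16 neuronal genes 5 were bound (31.25%), beside 16.5% of all X protein-coding genes. They were led by elav, a neuronal RNA-binding protein gene, with a score of 868. The elav summit lay 269 bp from a TSS of elav and from one of lncRNA:enrr, inside the span of arg. The others named here were dnc with 803, norpA, a phospholipase C gene of vision, with 179, and rdgB with 110. The rdgB gene was unbound in replicate 3, and its peak had no match in the whole list of that replicate. The channel genes para and Sh were unbound in all lists. Of 10 chromatin genes 4 were bound (40%): ph-p, Trf2 with a score of 230, ph-d with 230 and fs(1)h with 93.4. Of 9 growth and cell cycle genes 3 were bound (33.3%), which were Mnt with 297, Top1 with 209 and fzr with 195. Top1 was bound in each replicate, but the peak named here had a match only in the whole list of replicate 2. Myc had 4 optimal summits in its span but none within 500 bp of a TSS, though it was bound in replicate 1, and CycD had none in either place.

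In a list of 3 genes, Act5C, a cytoplasmic actin gene, was bound with a score of 246, and the muscle troponin genes up and wupA were unbound in all lists. The summit with that score lay 440 bp from an Act5C TSS and also within 500 bp of a TSS of lncRNA:CR45668. Act5C had 2 optimal summits within 500 bp of a TSS, the nearer of them 17 bp away. Of 13 genes known for visible mutant markers 3 were bound (23.1%), near the 16.5% of all X protein-coding genes. They were fw with 396, ct with 251 and w, the white eye colour transporter gene, with 106. The y and v genes were unbound. None of the 8 yolk and chorion genes (Yp1, Yp2, Yp3, Cp36, Cp38, Cp7Fa, Cp7Fb and Cp7Fc), which serve egg production, was bound in any list, again near the 16.5% bound over all X protein-coding genes for a list of that length. Members of these lists were picked by role, no test was made on them, and lists this short move by many percentage points with 1 gene. A gene counted as bound through any of its TSSs, of which sgg has 11 and br and dnc 9 each. The shares were not adjusted for the number of TSSs.

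**Figure D5:**
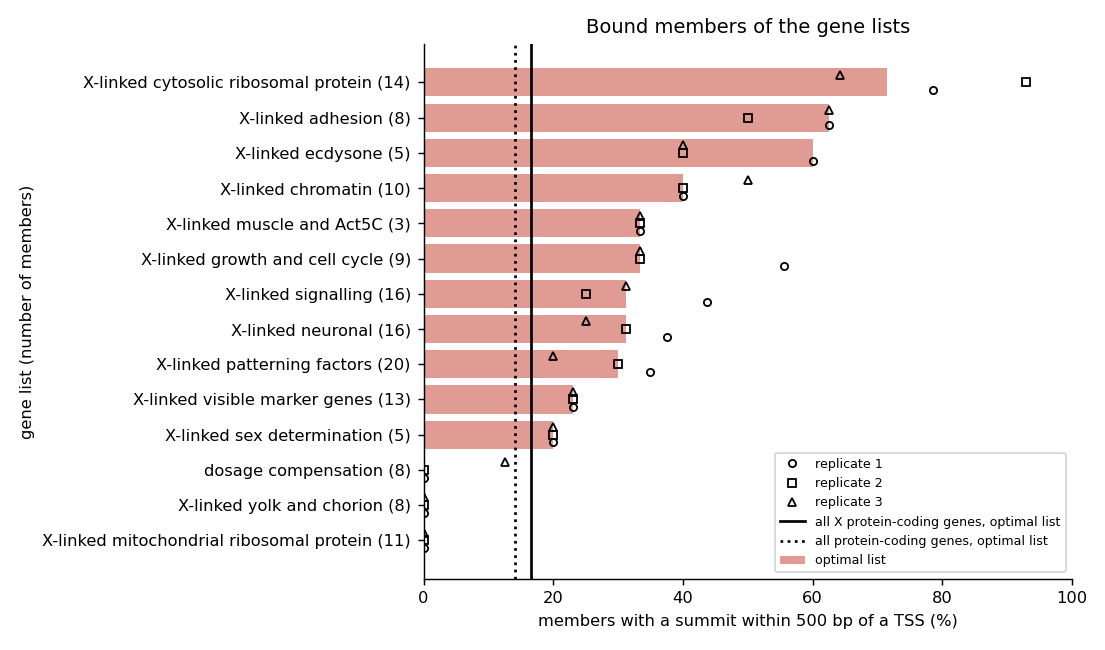
Percentage of the members of each gene list with a summit within 500 bp of a TSS. Bars give the optimal list, symbols the 3 replicates, the solid line all X protein-coding genes (16.5%) and the dotted line all protein-coding genes (14.1%): cytosolic ribosomal protein genes are highest at 71.4%, and the mitochondrial ribosomal protein, yolk and chorion and dosage compensation lists are at 0 in the optimal list.

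Repeats known from X were looked for within 50 bp of the summits, on both strands. GAGAGAGA, the core of GA-rich elements, was in 16 X windows (1.15%), against 85 autosomal windows (1.44%). In tiles of the same length over the chromosomes it was in 0.783% on X and 0.519% on the autosomes, a higher share on X. The difference at summits was -0.0695 ± 0.191 percentage points (SD, n = 3; exact sign-flip permutation test, p = 0.5), with both signs among the replicates. CACACACA was in 34 X windows (2.44%), against 95 autosomal windows (1.61%), with 3.02% of tiles on X and 1.90% on the autosomes. Its difference was 1.07, 1.09 and 0.981 percentage points in the replicates, with a mean of 1.05 ± 0.0575 (SD, n = 3; exact sign-flip permutation test, p = 0.25, adjusted 0.438). X summits held it less often than X tiles in the optimal list and in replicates 2 and 3, and about as often in replicate 1 (3.04%). The 2 motifs were counted separately, and a window can hold both.

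The highest X windows away from TSSs that hold each motif are printed with the motif in capitals. They lay in introns of Raf (chrX:2302203-2302303) and of Drak (chrX:11494890-11494990), where CACACACA is read on the other strand.
Raf intron: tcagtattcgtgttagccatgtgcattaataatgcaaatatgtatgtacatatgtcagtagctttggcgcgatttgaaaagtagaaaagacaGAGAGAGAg
Drak intron: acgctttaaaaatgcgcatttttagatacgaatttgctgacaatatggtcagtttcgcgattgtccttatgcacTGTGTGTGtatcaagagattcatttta
The Raf peak had a score of 274 and was number 310 among X peaks, and the Drak peak had a score of 641 and was number 59. The motifs TATCGATA, CACGTG and GGTCACAC were in 6, 7 and 5 X windows (0.431%, 0.503% and 0.359%), against 0.543%, 0.713% and 0.475% of autosomal windows. In the tiles of X they were in 0.350%, 1.14% and 0.244%. These shares are matches to letters and describe the windows only.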

How the data were processed

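ChIP-seq peaks of 3 replicates of 1 group were used. Per the deposited file descriptions, each replicate list holds peaks and background made as input for the irreproducible discovery rate (IDR) procedure, with a shared control, and the optimal list derives from it. No source read names the aligner, peak caller or IDR threshold. The authors deposited a signal value and a −log10 q-value for each peak, and the signal is the score used here. The 7283 peaks of the optimal dm6 list were found among the 7283 highest of the pooled list, so that number was taken from each replicate list of 30000. Where scores were compared, it was within a list. Lists give no counts, so the depth is unknown.

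Summits were placed on Ensembl release 115 (dm6) without pseudogenes and transposable elements, taking TSS-proximal (500 bp) before 5' UTR and coding exon, these before 3' UTR or any other exon, then intron and last intergenic. Densities by arm use sequenced bases, while those before and after 20 Mb of X and those per 10 kb use full lengths. X minus autosome differences were tested over replicates by exact two-sided sign-flip permutation, with Benjamini-Hochberg adjustment over 7. Steps ran in Python 3.11.15 with numpy 2.4.6, pandas 2.3.3 and scipy 1.17.1 and were tested on simulated data. Of 140 listed symbols 2 were matched through synonyms. Genes were named at the 20 highest and the lowest X peaks, among the 10 genes with most summits, at the extreme bins and within gene lists. Drak was named as the holder of a printed sequence, and msl-1, msl-2, msl-3, mle, Clamp and RpS14a and RpS14b after their values were seen. The members and lists were chosen with earlier results of these data known. Alternatives changed the number of peaks, the windows, the density measure, the arms, the matching and the replicates.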

Additional observations from a re-analysis of the deposited data

How the results depend on the processing

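The intron, intergenic, CACACACA and bound-gene differences and the density ratio kept the sign of their mean in every alternative run, the density ratio between 0.06 (whole lists, where replicate 3 was at -0.063) and 0.33 (log2), the bound-gene difference between 0.857 (TSS window of 200 bp) and 6.98 percentage points (whole lists), and the intergenic difference between -11.7 and -10.1 percentage points. Leaving out 1 replicate gave 0.10 to 0.21 for the density ratio, 2.09 to 4.32 points for bound genes and 9.06 to 10.2 points for introns. Without the bases after 20 Mb of X, an alternative added after seeing the data, the density ratio was 0.31. Only X was cut there, so this is not a like comparison. The autosomal arms were kept whole, and the lowest 1 Mb bins of 2L, 2R, 3L and 3R held 2, 0, 0 and 0 optimal peaks. The TSS-proximal difference of 0.107 points turned to -3.02 with a window of 200 bp and -0.263 with the highest 3641 peaks, leaving out 1 replicate gave -0.00702 to 0.178, and it was larger with whole lists (1.17) and a window of 1000 bp (0.599). The GAGAGAGA difference of -0.0695 turned to 0.287 with whole lists and 0.232 with windows of 100 bp to each side. The median score ratio (log2) ranged from -0.0052 to 0.013 with 1 replicate left out, and was 0.025 with the highest 3641 peaks and 0.064 with whole lists, against 0.0055. The causes were not tested. X peaks found in all replicates were 65.9% with an overlap of 1 bp and 43.9% with 50% of both lengths, against 57.1%. With 1 replicate left out and both others required, the share was 64.6% to 67.0%. No paired analysis was possible because the series has 1 group, so no groups of samples share numbers. X minus autosome differences were taken within each replicate throughout. With 3 replicates the exact sign-flip permutation test cannot go below p = 0.25, and unknown depth limits every share.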
